A study of Mus musculus with 6 samples.

Results

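Endothelin signaling was examined through 7 genes of the mouse: the ligands *Edn1*, *Edn2* and *Edn3*, the receptors *Ednra* and *Ednrb*, and the endothelin converting enzymes *Ece1* and *Ece2*. The set was chosen by the measured values of one member, since *Ednra* had already been seen to separate the genotypes in these libraries. The others were added for their place in the family. Of the 7 genes, 6 were found by symbol among the 18537 known-gene clusters of the expression table, and 4 of those (*Edn1*, *Ednra*, *Ece1* and *Ece2*) were among the 13692 clusters with enough reads to be tested. The question was whether ligands, the other receptor and the converting enzymes differed between the genotypes as *Ednra* did.

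Poly(A)+ RNA came from luminal progenitor cells, sorted as Lin-CD24loCD29+CD61+ from mammary glands of adult nulliparous females. These were *Robo1+/+* or *Robo1-/-* offspring of *Robo1+/-* parents, and the paper describes its females as littermates or age-matched. The *Robo1-/-* allele is *Robo1 tm1Matl*, carried in every tissue, so a difference may arise inside or outside the sorted cells. Each genotype had 3 libraries with 2 animals pooled in each, named gh03, gh09 and gh15 for *Robo1+/+* and gh06, gh12 and gh18 for *Robo1-/-*. Values are read counts that the authors divided by a size factor per library and are called normalized read counts here.

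Endothelins are secreted peptides that are cut in steps from long precursors. Furin-like proteases first release an inactive big endothelin, and the membrane-bound converting enzymes then trim it to the active peptide. The peptides act on a pair of G protein-coupled receptors. EDNRA prefers the peptides of *Edn1* and *Edn2*, whereas EDNRB binds all of them equally well and also clears them. The pathway is best known for constriction of blood vessels and for neural crest development, and endothelin is also known to contract mammary myoepithelial cells.

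The 3 active peptides are close relatives, and the stretch that codes for each is shown because it is where the ligand genes are most easily confused. The sequences were read from the GENCODE M1 transcripts on NCBI37/mm9, at chr13:42399018-42399080 for *Edn1*, chr4:119834556-119834618 for *Edn2* and chr2:174587250-174587312 for *Edn3*, all on the plus strand and each inside a single coding exon. Capitals mark the 18 of 63 bases that are not the same in all 3 genes.
Edn1: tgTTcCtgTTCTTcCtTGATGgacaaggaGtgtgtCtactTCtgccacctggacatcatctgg
Edn2: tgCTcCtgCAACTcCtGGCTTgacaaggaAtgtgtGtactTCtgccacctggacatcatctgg
Edn3: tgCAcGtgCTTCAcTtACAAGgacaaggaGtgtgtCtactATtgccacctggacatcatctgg
*Edn1* and *Edn2* shared 53 of these bases (84.1%), *Edn1* and *Edn3* 50, and *Edn2* and *Edn3* 48. The longest unbroken run of identical bases was 27. No 75-base sequence, the trimmed read length, from the longest coding transcript of any of the 7 genes occurred in a coding transcript of another gene, on either strand. Within coding transcripts, a full-length read of a ligand thus has 1 gene of origin.

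Depth, as reads recovered from the values, was 10494297 to 17433868 for *Robo1+/+* libraries and 9727191 to 15185303 for *Robo1-/-* libraries, so that 1 read was worth 0.784 to 1.46 units of normalized count. *Robo1* itself, the targeted gene, lay at 289, 574 and 541 in *Robo1+/+* and at 130, 214 and 177 in *Robo1-/-* libraries, so the labels and the gene go the same way. All 12 luminal progenitor markers (among them *Kit*, *Elf5*, *Cd14* and *Itgb3*) had at least 3 reads in every library. Library gh18 stood apart: across 12453 genes its deviation from the other libraries fell with the GC content of the transcript (Spearman's rho −0.81, against 0.17 to 0.61 in the other 5 libraries). Values are therefore also given without gh18 and after a correction for GC content.

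Among the ligands, *Edn1* was the one expressed at a level that could be compared, and its range was much the same in both genotypes. *Edn1* (kgCluster6142, chr13:42396639-42403358) encodes endothelin 1, the principal constrictor peptide of vessels. Its normalized read count was 258 in gh03, 158 in gh09 and 385 in gh15 among *Robo1+/+* libraries. In *Robo1-/-* libraries it was 186 in gh06, 223 in gh12 and 476 in gh18. The genotypes overlapped throughout, with the highest library in one and the lowest in the other. The *Robo1+/+* mean was 267 ± 114 and the *Robo1-/-* mean 295 ± 158 (SD, n = 3 each). The log2 fold change was 0.11 (SE 0.47, 95% interval −1.01 to 1.23, limma adjusted p = 0.949), and the exact permutation test over the 6 libraries gave p = 0.8, where the smallest two-sided p possible is 0.1. The interval covers folds from 0.497 to 2.35, so a change of 2-fold in either direction could not be told from none. The sign of the *Edn1* difference rested on single libraries. Without gh18, its highest library, the log2 fold change was −0.30 (SE 0.37), without gh09, its lowest, it was −0.22, and after the GC correction it was −0.054 (SE 0.38).

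*Edn2* (kgCluster17885, chr4:119833811-119839965), whose peptide differs from endothelin 1 at few residues, was near the limit of detection. It had 7, 9 and 4 reads in gh03, gh09 and gh15 and 10, 7 and 0 reads in gh06, gh12 and gh18. The sums were 20 reads in *Robo1+/+* and 17 in *Robo1-/-*, and the counting intervals of all 6 libraries overlap those of the other genotype. *Edn2* did not pass the filter on low reads and was not tested in the reported fit. The 0 reads in gh18 do not show absence: the floor of 3 reads there is a normalized read count of 4.38, the two-sided 95% counting interval reaches 5.38, and gh15 had 3.75. *Edn3* (chr2:174586120-174609543 in the annotation), the ligand tied most closely to EDNRB, had no cluster under its symbol and is not analysed here.

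Of the receptors, *Ednra* was detected in every library and *Ednrb* was not detectable in any. *Ednra* (kgCluster25058, chr8:80186930-80248363, minus strand) encodes the receptor through which endothelin 1 raises calcium by way of Gq proteins. Its normalized read count was 20.4 in gh03, 47.8 in gh09 and 44.1 in gh15, and 123 in gh06, 171 in gh12 and 101 in gh18. Every *Robo1-/-* library lay above every *Robo1+/+* library, with a gap of 1.06 on the log2 scale between the nearest pair, gh18 and gh09. Behind these values stood 16, 61 and 47 reads in *Robo1+/+* and 107, 187 and 69 reads in *Robo1-/-*. The 95% counting intervals did not meet either: the highest *Robo1+/+* library, gh09, ranged from 36.6 to 61.4 and the lowest *Robo1-/-* library, gh18, from 78.3 to 127. The means were 37.4 ± 14.9 (SD, n = 3) and 132 ± 36.1 (SD, n = 3), a ratio of 3.52, and the log2 fold change was 1.84 (SE 0.44). Because *Ednra* was picked for this separation, these values describe it and no test is given.

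Over 17 alternative settings the *Ednra* log2 fold change lay between 1.47 with gh03 left out and 2.06 with gh09 left out. Its sign could not turn as libraries were left out, since *Ednra* was picked for genotypes that did not overlap. The log2 fold change was 2.02 (SE 0.43) without gh18 and 1.68 (SE 0.44) after the GC correction. The corrected log2 values, 4.49, 5.68 and 5.57 for *Robo1+/+* against 7.06, 7.42 and 6.31 for *Robo1-/-*, still did not overlap. Among all tested genes, 4.83% were higher in every *Robo1-/-* than in every *Robo1+/+* library and 4.58% were lower in every one. The choice of *Ednra* used this contrast.

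One short stretch of *Ednra* is shared with another gene on the opposite strand and is shown for that reason. The annotated non-coding gene *4933431K23Rik* has an exon that covers 91 bases of an *Ednra* coding exon at chr8:80191741-80191831, or 2.51% of the longest *Ednra* transcript, here on the *Ednra* strand in lower case.
Ednra: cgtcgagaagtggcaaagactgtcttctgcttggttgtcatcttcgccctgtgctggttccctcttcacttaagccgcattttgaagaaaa
No cluster carried the symbol *4933431K23Rik*. The use of strand in counting is not given in the sources used here, so reads of the 2 genes over these bases cannot be told apart.

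*Ednrb* (kgCluster7967, chr14:104213842-104243390, minus strand), the other receptor, which also takes up and clears endothelin, was not detectable at this depth. It had 1, 0 and 1 reads in gh03, gh09 and gh15 and 1 read in each of gh06, gh12 and gh18, all under the floor of 3 reads, so no fold is given. The separation of *Ednra* therefore had no counterpart that could be measured in *Ednrb*.

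**Figure D1:**
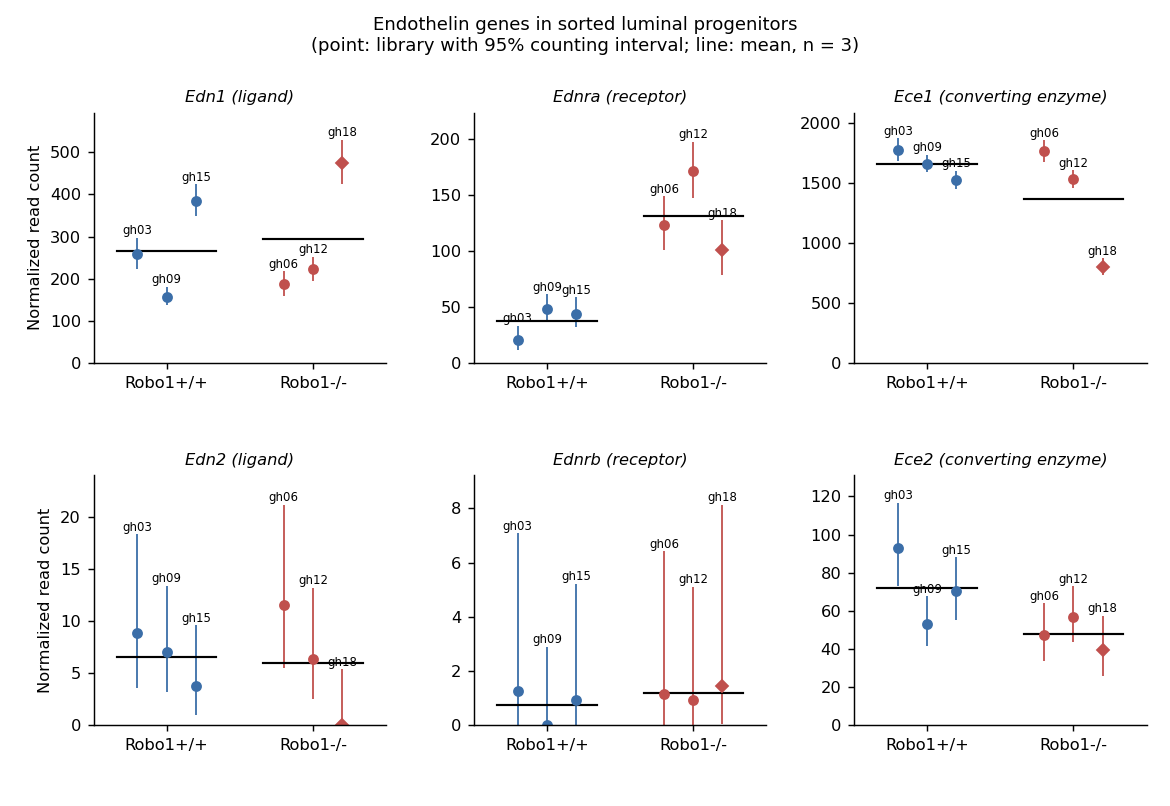
Normalized read count (vertical axis, linear from 0, a separate scale per gene) of the 6 endothelin genes with a cluster, by genotype, with each library as a point, its 95% counting interval as a bar and the mean of 3 libraries as a line. *Ednra* is the panel in which the genotypes are apart (20.4 to 47.8 against 101 to 171), *Edn1* and *Ece1* have gh18 (diamond) far from the other *Robo1-/-* libraries, and *Edn2* and *Ednrb* rest on at most 10 reads.

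Both converting enzymes were detected and both had lower means in *Robo1-/-*, but neither passed the test. *Ece1* (kgCluster18219, chr4:137418152-137521144) encodes the enzyme that makes most mature endothelin. Its normalized read count was 1775, 1659 and 1524 in gh03, gh09 and gh15 and 1762, 1528 and 801 in gh06, gh12 and gh18. Both gh06 and gh12 fell inside the *Robo1+/+* range, and gh18 alone lay below it. The means were 1653 ± 125 (SD, n = 3) and 1364 ± 501 (SD, n = 3). The log2 fold change was −0.35 (SE 0.32, 95% interval −1.11 to 0.40, limma adjusted p = 0.858; exact permutation p = 0.5). Without gh18 it was −0.0077 (SE 0.15), and after the GC correction −0.016 (SE 0.14). *Ece1* was thus the member measured most evenly in the other 5 libraries, from 1524 to 1775.

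*Ece2* (kgCluster9381, chr16:20611666-20646558) encodes a related enzyme that works at the acid pH of secretory vesicles and is best known from neurons and endocrine cells. Its normalized read count was 92.9, 53.3 and 70.4 in gh03, gh09 and gh15 and 47.2, 56.8 and 39.4 in gh06, gh12 and gh18. The genotypes overlapped through 1 library on each side, since gh12 lay above gh09. The means were 72.2 ± 19.9 (SD, n = 3) and 47.8 ± 8.71 (SD, n = 3). The log2 fold change was −0.56 (SE 0.36, 95% interval −1.41 to 0.28, limma adjusted p = 0.858; exact permutation p = 0.2). It was −0.44 (SE 0.32) without gh18 and −0.55 (SE 0.32) after the GC correction. With 27 to 75 reads per library, its counting intervals were wide.

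Of the 3 tested members other than *Ednra*, 0 passed an adjusted p of 0.05 in limma and 0 had an unadjusted p under 0.05, where 0% and 1.69% of all tested genes did. Over all 13692 genes limma called 0 at an adjusted p of 0.05, 231 at an unadjusted p of 0.05, edgeR called 0 and DESeq2 called 1 at an adjusted p of 0.05. None of the others with a cluster separated the genotypes as *Ednra* did: *Edn1*, *Ece1* and *Ece2* overlapped, with the means of *Ece1* and *Ece2* lower in *Robo1-/-*, and *Edn2* and *Ednrb* had too few reads to compare.

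**Figure D2:**
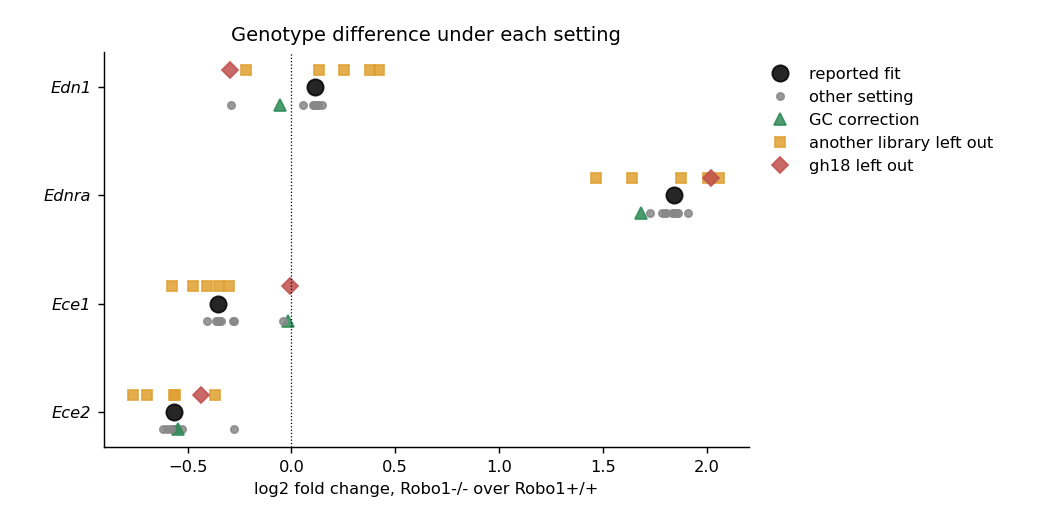
Log2 fold change of *Robo1-/-* over *Robo1+/+* (horizontal axis) for the 4 tested members in the reported fit (black) and under 17 alternatives each. *Ednra* stays between 1.47 and 2.06, *Edn1* falls on both sides of 0, and *Ece1* moves to −0.0077 when gh18 is left out (red diamond).

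The members' values in gh18 were set beside those of genes of like GC content. *Edn1* and *Ednra* have transcripts of 46.8% and 46.9% GC, *Ece2* of 50.7% and *Ece1* of 54.8%. In gh18, *Ece1* deviated by −1.04 on the log2 scale from its mean over the other libraries, and the 1344 genes within 1 percentage point of its GC content had a median deviation of −0.89. *Edn1* deviated by 1.04 there, against a median of 0.48 for 1288 genes of like GC content and a middle 50% from 0.19 to 0.75. *Ednra* deviated by 0.69 in gh18, inside the middle 50% of like genes (0.17 to 0.74). In gh06 and gh12 *Ednra* deviated by 1.03 and 1.60, where like genes had medians of −0.14 and 0.0029. The *Ednra* values of gh06 and gh12 thus lay above the middle 50% of genes of like composition, and that of gh18 lay within it. In every *Robo1+/+* library *Ednra* lay below that range. It deviated by −2.01 in gh03 (middle 50% −0.36 to 0.15), −0.58 in gh09 (−0.27 to 0.068) and −0.72 in gh15 (−0.24 to 0.081). *Ednra* was picked on these same values.

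**Figure D3:**
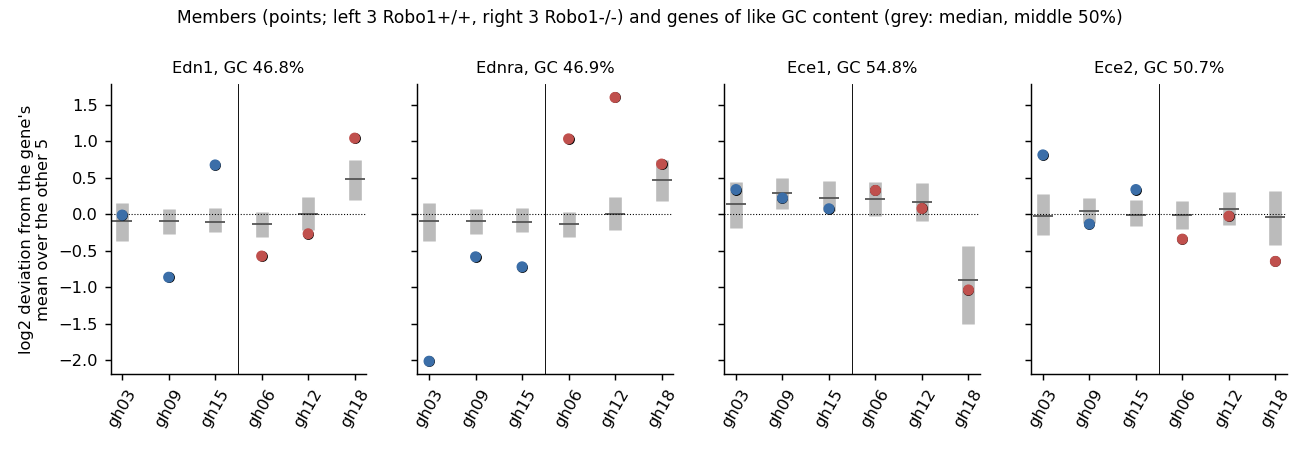
Log2 deviation of each tested member in each library from its mean over the other libraries (points), beside the median (dash) and middle 50% (grey bar) of genes within 1 percentage point of the same transcript GC content, with the 3 *Robo1+/+* libraries left of the line in each panel. *Ece1* in gh18 lies near its grey bar's median (−1.04 against −0.89), whereas *Ednra* lies above the bars in gh06 and gh12 and below them in the 3 *Robo1+/+* libraries.

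Per length, *Ece1* was the most abundant member and *Ednrb* the least. Levels between genes were compared as RPKM, reads scaled to the length of the longest coding transcript and to the reads of the library. In *Robo1+/+* cells, *Ece1* was at 25.5 ± 2.01, *Edn1* at 8.47 ± 3.66, *Ece2* at 1.56 ± 0.44, *Ednra* at 0.764 ± 0.30, *Edn2* at 0.334 ± 0.13 and *Ednrb* at 0.0138 ± 0.012 RPKM (SD, n = 3 each). The neighbours *Ednra* and *Edn2* overlapped in that order, with *Ednra* from 0.421 to 0.965 and *Edn2* from 0.191 to 0.456, whereas the other neighbours did not. With all exons of a gene counted as its length, *Ece2* (0.596 to 1.06 RPKM) and *Ednra* (0.278 to 0.639 RPKM) overlapped too. Among 15918 clusters with a length, *Ece1* was at the 80.5th percentile of RPKM, *Edn1* at the 56.4th and *Ednra* at the 27.4th. The ligand and its main converting enzyme were therefore among the expressed genes, and the receptor was low.

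In *Robo1-/-* cells the order of the receptor and the second enzyme turned. *Ednra* stood at 2.59 ± 0.73 RPKM and at the 38.7th percentile, *Ece2* at 0.989 ± 0.19 RPKM. *Ece1* was at 20.2 ± 7.53 and *Edn1* at 8.93 ± 4.68 RPKM, and these neighbours overlapped in *Robo1-/-*, where gh18 had more *Edn1* (14.3 RPKM) than *Ece1* (11.7 RPKM). Ratios within a library do not depend on how libraries were scaled, but they keep the GC trend of gh18 and were not corrected for it. In gh18, genes of like GC content to *Ednra* had a median deviation of 0.47 and those like *Ece1* of −0.89. The highest ratios of *Ednra* to *Ece1* (0.167) and of *Edn1* to *Ece1* (1.22) below were those of gh18. The ratio of *Ednra* to *Ece2* was 0.208 to 0.853 in *Robo1+/+* and 2.43 to 2.87 in *Robo1-/-* libraries, and that of *Ednra* to *Ece1* was 0.0152 to 0.0384 and 0.0929 to 0.167. Neither ratio overlapped between the genotypes, and the choice of *Ednra* had used its part of them. The ratio of *Ednra* to *Edn1*, receptor to ligand, was 0.0510 to 0.196 in *Robo1+/+* and 0.137 to 0.498 in *Robo1-/-* libraries and did overlap. The ratio of *Edn1* to *Ece1*, which leaves *Ednra* out, overlapped as well (0.195 to 0.518 and 0.217 to 1.22).

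**Figure D4:**
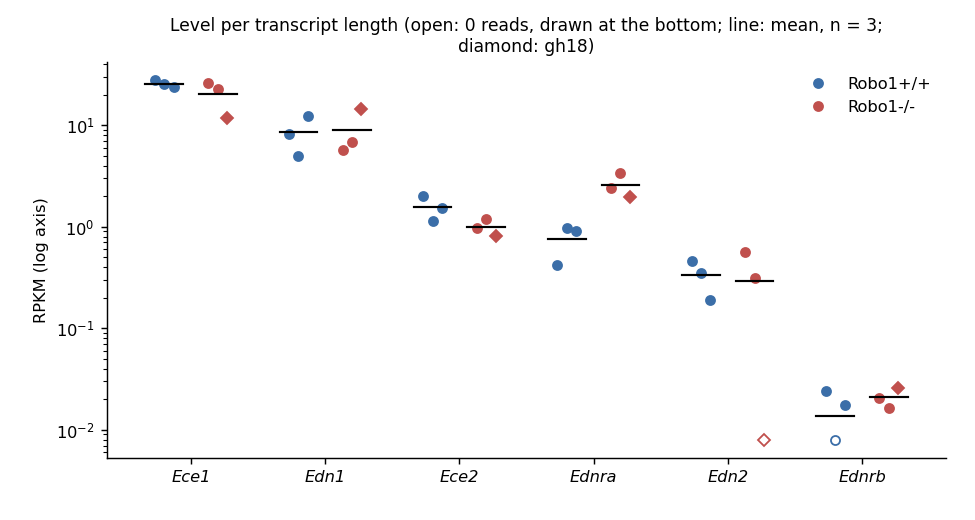
RPKM of each member in each library (log vertical axis), *Robo1+/+* in blue and *Robo1-/-* in red, with the mean of 3 libraries as a line, gh18 as a diamond and libraries with 0 reads as open symbols at the bottom. *Ece1* is the highest member in 5 of 6 libraries, *Ednrb* lies near the level of 1 read, and *Ednra* is the member whose genotypes are apart.

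*Ednra* is known from smooth muscle, pericytes and fibroblasts, so markers of these cells were read beside it. The 10 pericyte and vascular smooth muscle markers summed to between 615 and 1115 normalized read counts in *Robo1+/+* and between 632 and 875 in *Robo1-/-* libraries, with *Kcnj8* under 3 reads in every library. In any library *Pdgfrb* and *Des* had at most 3 reads, *Cspg4* at most 7 and *Abcc9* at most 8. The rest of the list had more: *Mcam* 171 to 497 reads, *Acta2* 99 to 399, *Myh11* 53 to 177, *Rgs5* 22 to 93 and *Cnn1* 8 to 31. The 10 fibroblast markers summed to 736 to 865 and 342 to 1085, and the 12 basal and myoepithelial markers to 923 to 2634 and 1115 to 1904. Each of these 3 sums overlapped between the genotypes. Outside gh12, *Dcn* was the largest part of the fibroblast sum. It was at 389, 655 and 523 in gh03, gh09 and gh15 and at 641 and 582 in gh06 and gh18. In gh12, the library with the lowest fibroblast sum, *Dcn* was at 88.9. *Acta2*, *Myh11* and *Cnn1* are in both the pericyte and the basal list, so those sums are not separate readings. Of the 12 endothelial markers, *Cdh5* and *Cldn5* were under 3 reads in every library and *Emcn* had no cluster. The endothelial sum was 1426 to 2519 in *Robo1+/+* and 220 to 1749 in *Robo1-/-* libraries. Most of that sum was *Vwf* and *Eng*, so it does not stand for the list. In gh03, gh09 and gh15 *Vwf* was at 2167, 1437 and 570 and *Eng* at 266, 761 and 772. In gh06, gh12 and gh18 *Vwf* was at 1054, 357 and 140 and *Eng* at 585, 1219 and 42.3. *Pecam1* had 16 to 98 reads, and *Kdr* and *Tie1* at most 3. Of the 10 leukocyte markers, *Ptprc* and *Emr1* were under 3 reads in every library, 3 had no cluster, and the sum was 120 to 163 and 99.2 to 124. The 8 melanocyte and Schwann cell markers, cells in which *Ednrb* is known, summed to 1653 to 2024 and 562 to 1729, and *Dct*, *Tyrp1* and *Mlana* had no cluster.

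The summed level of one other marker list also separated the genotypes, but only with *Prlr* in the sum. The 10 hormone-sensing mature luminal markers, which include *Esr1*, *Pgr* and *Prlr*, summed to 47292 to 59843 normalized read counts in *Robo1+/+* and 62200 to 74207 in *Robo1-/-* libraries, without overlap. Its most abundant member was *Prlr*, the prolactin receptor, at 20097 to 31025 and 26868 to 37136. Without *Prlr* the other 9 summed to 26126 to 30640 and 27720 to 37488 and overlapped. Of the 10 genes, 1 (*Pgr*) was higher in every *Robo1-/-* than in every *Robo1+/+* library and 0 were lower in every one. Among all tested genes these shares were 4.83% and 4.58%, so 1 of 10 is no result about the list. In limma 0 passed an adjusted p of 0.05. Of the 10, 3 had a log2 fold change below 0, among them *Wnt4*, at 602, 546 and 360 in gh03, gh09 and gh15 against 460, 213 and 4.38 in gh06, gh12 and gh18. At least 9 of the 10 had 3 reads or more in every library. The part of hormone-sensing cells in the *Ednra* difference was not tested. The luminal progenitor markers summed to 131611 to 160679 and 80438 to 174218, the lowest being gh18. In RNA of sorted populations, more cells that express *Ednra* and more *Ednra* RNA per cell cannot be told apart.

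Genes around the ligands and receptors were taken from 4 lists of 70 genes, of which 67 had a cluster and 60 were tested. At an adjusted p of 0.05, 0 of the 60 passed in limma. At an unadjusted p of 0.05, 1 (*Prkca*) was higher in *Robo1-/-* and 0 were lower, where 0.767% and 0.92% of all tested genes were. Without gh18 these counts were 3 higher (*Prkca*, *Itpr2* and *Map2k1*) and 1 lower (*Plcb1*) of the 60. *Itpr2*, *Map2k1* and *Plcb1* are named for this alone. Over the 13692 tested genes the counts without gh18 were 260 higher and 314 lower. Whether the counts of the lists differ from these was not tested. The genotypes did not overlap for 3 genes that were higher (*Prkca*, *Gnaq* and *Hif1a*) and 1 that was lower (*Grk6*), which is 5% and 1.67% of those tested, where the shares among all tested genes were 4.83% and 4.58%. The median log2 fold change was −0.12 over the 60 genes and 0.0022 over all tested genes. Without gh18 that median was 0.072 and after the GC correction 0.042, so its sign rested on gh18.

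Of the 11 genes of ligand processing and clearance, 5 were tested, and they showed how far gh18 could carry a value. *Furin*, which cuts the endothelin precursors, was at 1744, 2034 and 2213 in *Robo1+/+* and at 2515, 1546 and 149 in *Robo1-/-* libraries. The *Furin* log2 fold change of −1.25 (SE 0.97, limma adjusted p = 0.858) became −0.011 without gh18 and −0.55 after the GC correction. *Pcsk7*, another proprotein convertase, was at 1067 ± 120 and 869 ± 383 (SD, n = 3 each), and its log2 fold change of −0.41 became 0.030 without gh18 and 0.021 after the GC correction. *Mme*, encoding neprilysin, which degrades endothelin, was at 503, 787 and 432 in *Robo1+/+* and at 938, 708 and 1059 in *Robo1-/-* libraries, with 1 library of each genotype overlapping. Its log2 fold change was 0.68 (SE 0.30, limma adjusted p = 0.858), and it was 0.55 without gh18 and 0.35 after the GC correction.

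Of the 36 genes of receptor coupling and signaling, 34 were tested, with 17 of them above 0 and 17 below. That split rested on gh18: it was 27 and 7 without gh18 and 23 and 11 after the GC correction. Over all tested genes it was 6921 and 6771 without gh18 and 6288 and 6165 after the GC correction. Whether the splits of the list differ from these was not tested. *Prkca*, the protein kinase C alpha that acts downstream of Gq, was at 458, 731 and 681 in *Robo1+/+* and at 910, 1079 and 962 in *Robo1-/-* libraries. All *Robo1-/-* values lay above all *Robo1+/+* values. For *Prkca* the log2 fold change was 0.68 (SE 0.25, limma unadjusted p = 0.0291, adjusted p = 0.858), and it was 0.70 without gh18 and 0.50 after the GC correction. *Pla2g4a*, the phospholipase that frees arachidonic acid, had a log2 fold change of 0.74 (SE 0.34, limma adjusted p = 0.858) with overlapping genotypes, and one of 0.74 without gh18 and 0.44 after the GC correction. *Gnaq*, the Gq alpha subunit to which EDNRA couples and which was named after its values were seen, was at 1822, 2009 and 1914 in *Robo1+/+* and at 2065, 2244 and 2761 in *Robo1-/-* libraries, a log2 fold change of 0.29 (SE 0.20, limma adjusted p = 0.858) that was 0.17 without gh18 and 0.13 after the GC correction. The most abundant genes of the list were *Gnas*, the Gs alpha subunit, and *Rhoa*, a small GTPase of contraction. *Gnas* was at 7583 ± 608 and 6201 ± 2518, and *Rhoa* at 5249 ± 111 and 6415 ± 1101 (SD, n = 3 each), neither past the test.

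Of the 11 genes of receptor desensitization, 10 were tested, with 3 above 0 and 7 below, which became 5 and 5 without gh18 and 4 and 6 after the GC correction. *Adrbk1*, the G protein-coupled receptor kinase that phosphorylates many active receptors, was at 2451 ± 426 and 2059 ± 1125, and *Arrb1*, the beta-arrestin that then binds them, at 3475 ± 691 and 3539 ± 694 (SD, n = 3 each). *Grk6*, another receptor kinase, was at 775, 719 and 783 in *Robo1+/+* and at 656, 713 and 258 in *Robo1-/-* libraries. Although all *Robo1-/-* values were lower, gh12 missed the *Robo1+/+* range by little, and the log2 fold change of −0.62 (SE 0.40, limma adjusted p = 0.858) was −0.15 without gh18 and −0.038 after the GC correction. *Rgs2*, which speeds the turning off of Gq, ranged from 550 to 2274 over the *Robo1+/+* libraries and from 294 to 984 over the others.

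Of the 12 transcription factors known to act on the *Edn1* promoter, 11 were tested, with 7 above 0 and 4 below. *Fos* and *Jun*, which pair as AP-1, had the highest means over all 6 libraries, *Fos* at 17525 ± 4173 and 19544 ± 8754 and *Jun* at 6682 ± 1300 and 8056 ± 4775 (SD, n = 3 each). *Hif1a*, the hypoxia factor, was at 3546, 6304 and 7334 in *Robo1+/+* and at 9140, 8720 and 8542 in *Robo1-/-* libraries. All *Robo1-/-* values lay above, closely grouped. Its log2 fold change was 0.68 (SE 0.30, limma adjusted p = 0.858), and it was 0.71 without gh18 and 0.37 after the GC correction. *Fosl1*, another AP-1 member, had a log2 fold change of −0.60 (SE 0.35, limma adjusted p = 0.858), which was −0.39 without gh18 and 0.061 after the GC correction.

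**Figure D5:**
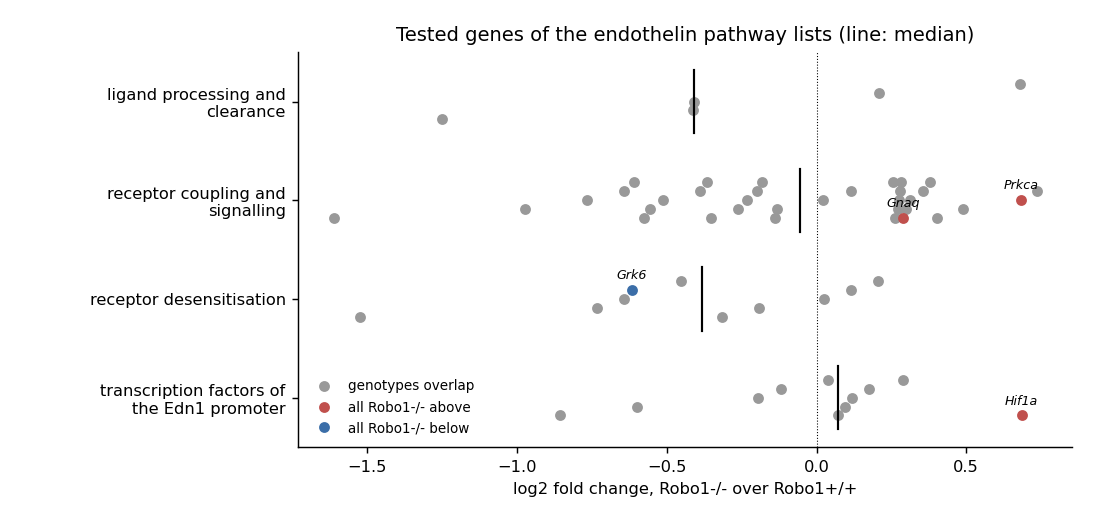
Log2 fold change of *Robo1-/-* over *Robo1+/+* (horizontal axis) for the 60 tested genes of the 4 pathway lists, 1 point per gene, with the median of each list as a line. *Prkca*, *Gnaq* and *Hif1a* (red) and *Grk6* (blue) are the 4 genes whose genotypes did not overlap, and points lie on both sides of 0 in every list.

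The genes whose profile over the 6 libraries was nearest to a member's were found by the root mean square (RMS) difference of log2 values, each centred on its own mean. Nearest to *Ednra* were *Pinc* (RMS 0.31), *Slc14a1* (0.37) and *Clca1* (0.40), where the *Ednra* profile itself had an SD of 1.02. *Pinc*, a non-coding RNA of the mammary gland, was at 42.0, 137 and 105 in *Robo1+/+* and at 200, 527 and 204 in *Robo1-/-* libraries. *Slc14a1*, a urea transporter, was at 198, 361 and 568 and at 699, 1246 and 671 in the same order, and shared with *Ednra* its lowest library, gh03, and its highest, gh12. *Clca1* was lowest and highest in the same pair of libraries, at 338 and 1551. Because *Ednra* was picked for genotypes that did not overlap, genes nearest to its profile are apt to separate the genotypes too. Their separation is therefore no result of its own. For *Ece1* the nearest were *Kif1c* (0.034), *Dhx16* (0.053) and *Cyb561d2* (0.059), all lowest in gh18. For *Edn1* they were *Sept11* (0.13), *2700099C18Rik* (0.14) and *Ankrd11* (0.15), all highest in gh18. For *Ece2* they were *Timeless* (0.068), *Frmpd1* (0.070) and *Apcdd1* (0.078), with gh03 highest and gh18 lowest. With 6 libraries and 13692 genes, near profiles can be found for most shapes, and *Ednra* was the member whose neighbours were farthest from it.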

How the data were processed

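The values deposited by the authors are a normalized signal: reads counted in each known-gene cluster, scaled by a size factor for the library. According to the methods, reads were trimmed to 75 bases, cleared of repeats with bowtie2, mapped to the NCBI37/mm9 genome by TopHat and scaled by DESeq2, for which the labels give DESeq. The counting tool is not given in the sources used here. Dividing by the value of 1 read returned whole reads (within 0.1 read) for 100% of values. Log2(value + 1) was tested with limma 3.58.1 (trend, Benjamini-Hochberg) in R 4.3.3 for the clusters kept by filterByExpr of edgeR 4.0.16. Alternatives were DESeq2 1.42.0, edgeR and voom on recovered reads, other scalings, filters and pseudocounts, a lowess GC correction, and each library left out. Exact permutation tests were two-sided. Counting intervals (95%, exact Poisson) and the 3-read floor cover counting error only. Scripts were tested on simulated data. Members, lists and tests were chosen with earlier results of these data known. Named genes were the members, *Robo1*, the 2 highest and the 2 lowest in p of each pathway list, and the 3 nearest profiles. A symbol with several clusters was taken as the one with most reads. GC content and lengths came from GENCODE M1 by symbol, for 91% of tested genes. P-values measure the spread between these pools of 2 animals.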

Additional observations from a re-analysis of the deposited data

How the results depend on the processing

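No paired analysis was made, because the labels name no pairs and the libraries of the 2 genotypes share no replicate number. Whether they were collected in pairs is not known. Over 17 alternatives for each of the 4 tested members, 64 of 68 log2 fold changes kept their direction. Of these, 17 were those of *Ednra*, picked for genotypes that did not overlap, whose sign could not turn as libraries were left out. No member other than *Ednra*, which was given no test, came under an adjusted p of 0.05. That says nothing about stability, since the 95% intervals of *Edn1*, *Ece1* and *Ece2* all held 0 and the fit called 0 genes in all. The 4 exceptions were all *Edn1*: its log2 fold change of 0.11 became −0.054 after the GC correction and −0.29 with limma-voom and quality weights, and ranged from −0.30 (without gh18) to 0.42 (without gh15) as libraries were left out, with −0.22 without gh09. Leaving out 1 library gave −0.58 to −0.0077 for *Ece1*, −0.76 to −0.37 for *Ece2* and 1.47 to 2.06 for *Ednra*. The adjusted p ranged over these alternatives from 0.726 to 0.999 for *Edn1*, 0.555 to 0.999 for *Ece1* and 0.584 to 0.999 for *Ece2*. DESeq2 called 1 gene over all genes where limma called 0. At an unadjusted p of 0.05 the 231 genes of limma (126 lower, 105 higher) became 1641 with voom, 415 with all genes of at least 1 read, and 117 to 903 as libraries were left out (117 without gh15, 133 without gh03, 133 without gh12, 588 without gh18 and 903 without gh06). The filter on low reads was rerun when a library was left out, so the 588 without gh18 are of 14010 genes. With the 10 most abundant genes kept out of the library totals, 166 were lower and 72 higher. Without the filter *Edn2* had a log2 fold change of −0.68 and with DESeq2 one of −0.10. Depth limits *Edn2* and *Ednrb*, which had at most 10 and at most 1 read in a library.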
